A study of Homo sapiens with 6 samples.

Results

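The 9 genes described here encode ligands, receptors, signal carriers and targets of transforming growth factor beta (TGF-beta): TGFB1, TGFB2, TGFBR1, TGFBR2, SMAD2, SMAD3, SMAD4, TGFBI and SKIL. They were chosen by symbol, each on 1 entry, and are 9 of 21619 entries in the count table. PolyA RNA was sequenced from HT1080, a human fibrosarcoma cell line, in 3 libraries of cells with stable overexpression of PGK1, a glycolytic enzyme (PGK1_OE), and in 3 libraries of cells labelled wild type (WT). The labels name no vector, promoter or clone for PGK1_OE, and leave unstated if WT cells were untransduced or held a control vector. Separate cultures for the replicates are not mentioned either, so the p-values reflect spread between libraries that may be technical.

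TGF-beta ligands are secreted in a latent complex and act through a heteromeric receptor, in which the type II receptor phosphorylates the type I receptor. The active type I receptor phosphorylates SMAD2 and SMAD3, which join SMAD4, enter the nucleus and act on target genes. The pathway is known for matrix deposition and invasion in mesenchymal cells and for arrest of the cell cycle in epithelial cells. In bulk RNA, a change of mRNA per cell and a change in the share of cells that express a gene cannot be told apart.

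The libraries held 35851668 to 40538274 counts in PGK1_OE and 34425162 to 37500947 counts in WT, and all carry 1 batch label. PGK1 stood at 12660 ± 597 CPM (read counts scaled to library size, with TMM factors) in PGK1_OE and 523 ± 4.03 CPM in WT (SD, n = 3 each), and introduced and endogenous PGK1 reads were not distinguished. The mesenchymal markers VIM, FN1, CDH2, S100A4, THY1 and COL6A1 summed to 1817.5 to 1855 FPKM (fragment counts scaled to gene length and library size) in PGK1_OE and 924 to 1118 FPKM in WT, with VIM giving most of the sum. Of these 6, CDH2 and THY1 were lower in PGK1_OE, with CDH2 at 23.0 to 24.7 FPKM in PGK1_OE and 35.7 to 36.7 FPKM in WT, and THY1 at 0.113 FPKM or less in every library. Summed FPKM of 6 epithelial markers was 178 to 189 in PGK1_OE and 85.9 to 96.8 in WT, that of 4 endothelial markers 1.64 to 2.47 in PGK1_OE and 0.634 to 0.726 in WT, and that of 4 blood markers 118 to 133 in PGK1_OE and 119 to 134 in WT. PECAM1 gave most of the endothelial sum, at 1.55 to 2.35 FPKM in PGK1_OE and 0.322 to 0.506 FPKM in WT, while VWF stood at 0.0567 to 0.115 FPKM in PGK1_OE and 0.116 to 0.195 FPKM in WT, and CDH5 and KDR were at 0.171 FPKM or less in every library. Of these markers, EPCAM, KRT5 and PTPRC had 0 counts in every library, while CD68 stood at 118 to 134 FPKM. The epithelial sum came mostly from KRT8 (83.9 to 92.0 FPKM in PGK1_OE, 37.8 to 44.7 in WT) and KRT18 (93.0 to 96.1 in PGK1_OE, 47.5 to 51.6 in WT). CDH1 went the other way, with 0 counts in PGK1_OE and 0.156 FPKM or less in WT. The groups overlapped for CLDN4, at 1.07 FPKM or less. The part of these markers in the results below was not tested.

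The promoter sequence is shown for the 2 members with the largest rises, TGFB1 and TGFBR1, and for SKIL, 1 of the 2 members that fell, because its promoter is a known SMAD target. Each is 250 bases before to 50 bases after an annotated start, read 5′ to 3′ on the gene's strand, from RefSeq on GRCh38.p14. Capitals mark the SMAD-binding element CAGAC or its reverse complement GTCTG.
TGFB1, chr19:41353873-41354172, minus strand: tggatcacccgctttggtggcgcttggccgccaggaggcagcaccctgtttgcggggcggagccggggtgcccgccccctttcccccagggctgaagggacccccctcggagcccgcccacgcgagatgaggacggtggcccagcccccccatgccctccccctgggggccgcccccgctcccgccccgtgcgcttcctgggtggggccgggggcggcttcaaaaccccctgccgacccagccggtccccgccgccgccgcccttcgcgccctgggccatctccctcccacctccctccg
TGFBR1, chr9:99104863-99105162, plus strand, the first of 8 listed windows: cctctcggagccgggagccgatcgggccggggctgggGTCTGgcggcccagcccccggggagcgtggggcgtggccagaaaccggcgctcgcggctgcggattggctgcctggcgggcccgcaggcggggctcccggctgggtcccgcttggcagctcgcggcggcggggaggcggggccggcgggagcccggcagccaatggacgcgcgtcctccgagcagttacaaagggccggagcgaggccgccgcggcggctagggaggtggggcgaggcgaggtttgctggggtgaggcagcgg
SKIL, chr3:170357465-170357764, plus strand: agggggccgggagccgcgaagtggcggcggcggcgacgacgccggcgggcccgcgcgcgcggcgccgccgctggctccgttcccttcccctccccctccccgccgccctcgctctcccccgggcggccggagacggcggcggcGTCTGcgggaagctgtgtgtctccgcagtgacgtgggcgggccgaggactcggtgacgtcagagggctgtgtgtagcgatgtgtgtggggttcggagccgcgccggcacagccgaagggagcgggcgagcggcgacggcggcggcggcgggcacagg

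All 9 genes matched the promoter table, with 22 windows in all. CAGAC, on either strand, stood in 9 of these 22 windows (40.9%) and in 45.3% of the 35116 windows of all genes. The TGFB1 window held none, the TGFBR1 window shown held 1 and the SKIL window held 1. The palindromic element GTCTAGAC was in 0 of the 22 windows and in 0.202% of all windows, and the AP-1 site TGACTCA, on either strand, was in 2 of the 22 windows and in 4.95% of all. These are matches of letters, and binding was not measured.

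In PGK1_OE, mRNA of the ligand TGFB1 and of the type I receptor TGFBR1 was more than doubled, SMAD3, SMAD4, TGFBI and TGFBR2 rose by less, and SMAD2 and SKIL fell. TGFB2 did not pass the test. All 9 genes passed the filter on low counts. A gene was called at an adjusted p under 0.05 in the quasi-likelihood test of edgeR, adjusted by the Benjamini-Hochberg method over all 14322 entries tested. By this rule 6 of the 9 rose and 2 fell, while 71.2% of all entries tested were called, 35.4% upward and 35.8% downward. DESeq2 also called 8 of the 9, and 71.0% of all entries. Calls were thus frequent over the whole table, and the count shows nothing particular to these genes. The median size of the log2 fold change was 0.51 over the 9 genes and 0.56 over all entries. TGFB1 and TGFBR1 were the 2 genes called with a 2-fold or larger change, and both rose. The same held for 24.1% of all entries in either direction and for 12.0% upward.

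**Figure D1:**
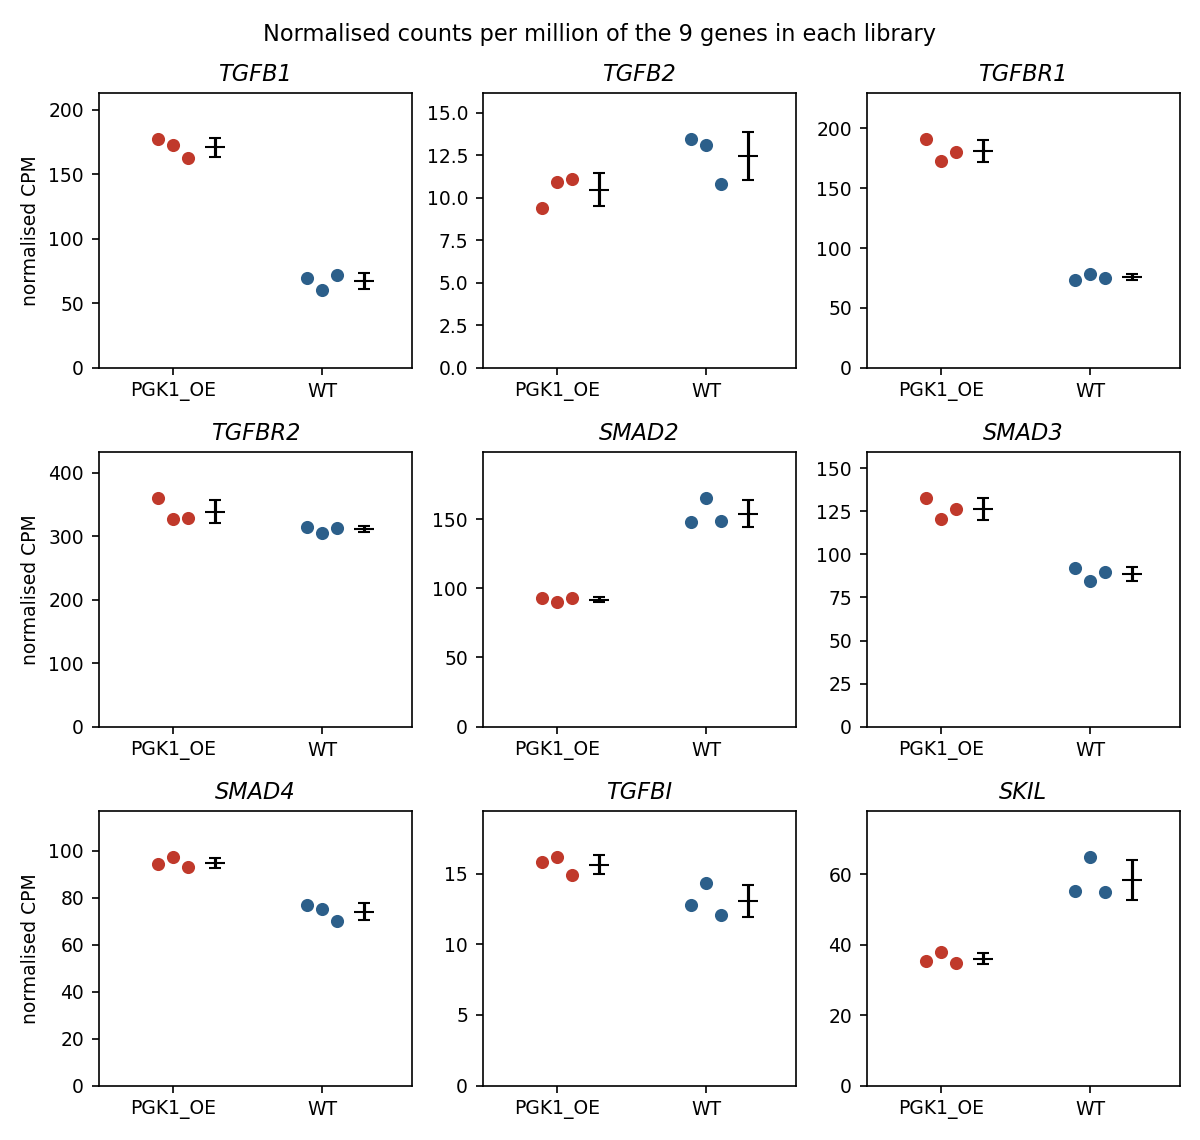
Normalised CPM (vertical axes, from 0) of each of the 9 genes in the 3 PGK1_OE libraries (left, red) and the 3 WT libraries (right, blue), with the mean and SD beside the points. The groups stand apart for every gene but TGFB2, where they overlap.

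Among the ligands, TGFB1, the main secreted isoform in many tissues, had 177, 173 and 162 CPM in the PGK1_OE libraries, against 69.5, 60.3 and 71.6 CPM in the WT libraries. The lowest PGK1_OE library was above every WT library by a wide margin. PGK1_OE exceeded WT by 2.55-fold, or 1.35 on the log2 scale (edgeR adjusted p = 1.47e-08, SE 0.06). This change was larger in size than that of 83.8% of entries tested. TGFB1 (ENSG00000105329) lies on chromosome 19 from 41301587 to 41353911 on the minus strand of GRCh38. Of its 3238 annotated exon bases, 215 (6.64%) are shared with exons of HNRNPUL1, a gene for an RNA-binding protein on the opposite strand. HNRNPUL1, taken up after the overlap was seen, stood at 373 ± 4.02 CPM in PGK1_OE and 159 ± 9.78 CPM in WT (1.23 on the log2 scale, edgeR adjusted p = 7.07e-10, SE 0.05). Whether the counting used strand is not given in the sources used here, and the part of HNRNPUL1 reads in the TGFB1 value was not tested.

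TGFB2, a ligand that needs the co-receptor TGFBR3 for high-affinity binding, had 9.37, 10.9 and 11.1 CPM in PGK1_OE libraries, against 13.4, 13.1 and 10.8 CPM in WT libraries. The lowest WT library lay below 2 of the PGK1_OE libraries, so the groups overlapped. Its log2 fold change was -0.25, with SE 0.12 and an edgeR adjusted p of 0.0877. It passed without WT replicate 3 (-0.33, edgeR adjusted p = 0.0356) and with library totals in place of scaling factors (-0.29, edgeR adjusted p = 0.0487). TGFB2 (ENSG00000092969, chromosome 1, 218346235 to 218444619, plus strand) shares 1371 exon bases (26.6%) with the overlapping transcript gene TGFB2-OT1 on the same strand. TGFB2-OT1 has no entry in the count table, so the TGFB2 value may include its reads and is uncertain.

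Of the receptors, TGFBR1, the type I receptor kinase that phosphorylates SMAD2 and SMAD3, had 191, 172 and 180 CPM in PGK1_OE libraries, against 73.2, 78.5 and 75.0 CPM in WT libraries. All PGK1_OE values were more than 2-fold above all WT values. Its log2 fold change of 1.26, with SE 0.05 and an edgeR adjusted p of 9.42e-10, was larger in size than that of 81.4% of entries tested. TGFBR1 (ENSG00000106799) lies on chromosome 9 from 99104038 to 99154192 on the plus strand and shares no exon base with another annotated gene.

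TGFBR2, the type II receptor kinase that binds ligand first, had 360, 327 and 329 CPM in PGK1_OE libraries, against 315, 305 and 312 CPM in WT libraries. The groups did not overlap, but PGK1_OE replicates 2 and 3 lay only a little above the WT libraries. The log2 fold change of 0.12 (SE 0.04, edgeR adjusted p = 0.0222) was the smallest of the 9 in size. The call was lost with library totals in place of scaling factors (0.08, edgeR adjusted p = 0.118) and with limma on log2(FPKM + 1) (0.07, limma adjusted p = 0.204). TGFBR2 (ENSG00000163513) lies on chromosome 3 from 30606502 to 30694142 on the plus strand.

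**Figure D2:**
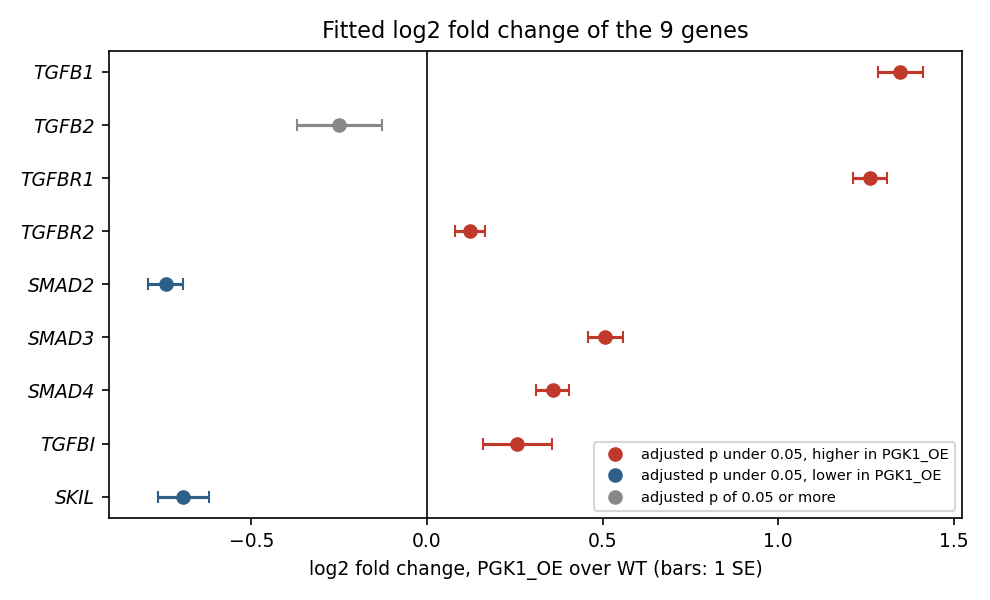
Fitted log2 fold change of PGK1_OE over WT (horizontal axis) for the 9 genes, with bars of 1 SE, red for genes that rose, blue for genes that fell and grey for TGFB2. TGFB1 (1.35) and TGFBR1 (1.26) lie furthest right, and SMAD2 (-0.74) and SKIL (-0.69) furthest left.

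The 3 SMAD genes did not move one way. SMAD2, a receptor-regulated SMAD, had 92.9, 89.7 and 93.0 CPM in PGK1_OE libraries, against 148, 165 and 148 CPM in WT libraries. Every PGK1_OE library lay below every WT library. Its log2 fold change was -0.74, with SE 0.05 and an edgeR adjusted p of 8.34e-08. SMAD2 (ENSG00000175387) lies on chromosome 18 from 47808957 to 47931146 on the minus strand.

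SMAD3, the receptor-regulated SMAD that binds DNA directly, had 133, 120 and 126 CPM in PGK1_OE libraries, against 92.4, 84.5 and 89.7 CPM in WT libraries. The groups did not overlap. SMAD3 had a log2 fold change of 0.51, with SE 0.05 and an edgeR adjusted p of 2.54e-06. SMAD3 (ENSG00000166949, chromosome 15, 67063763 to 67195195, plus strand) shares 182 of its exon bases with an annotated antisense RNA gene.

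SMAD4, the common partner of SMAD2 and SMAD3, had 94.5, 97.3 and 93.0 CPM in PGK1_OE libraries, against 77.0, 75.1 and 70.2 CPM in WT libraries. The 3 PGK1_OE values were close together and all above the WT values. SMAD4 had a log2 fold change of 0.36, with SE 0.05 and an edgeR adjusted p of 3.28e-05. SMAD4 (ENSG00000141646, chromosome 18, 51028394 to 51085045, plus strand) shares 967 exon bases with a same-strand gene, AC091551.1, that had 0 counts in every library.

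Of the 2 targets, TGFBI, a secreted matrix protein gene named for its induction by TGF-beta, had 15.8, 16.2 and 14.9 CPM in PGK1_OE libraries, against 12.7, 14.3 and 12.1 CPM in WT libraries. The groups were close but did not overlap. Its log2 fold change was 0.26, with SE 0.10 and an edgeR adjusted p of 0.0350. The call was lost without PGK1_OE replicate 1 or 2 (edgeR adjusted p = 0.0742 and 0.0989), without WT replicate 1 or 3 (0.0843 and 0.109) and with library totals (0.0810). TGFBI (ENSG00000120708) lies on chromosome 5 from 136028895 to 136063818 on the plus strand.

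SKIL, whose product SnoN binds SMADs and represses their targets, had 35.5, 37.8 and 34.9 CPM in PGK1_OE libraries, against 55.2, 64.9 and 54.9 CPM in WT libraries. Every PGK1_OE library lay below every WT library. The log2 fold change of SKIL was -0.69, with SE 0.07 and an edgeR adjusted p of 3.81e-06, a change larger in size than that of 59.1% of entries tested. SKIL (ENSG00000136603) lies on chromosome 3 from 170357678 to 170396835 on the plus strand and shares no exon base with another annotated gene. The groups stood apart for 8 of the 9 genes, 6 higher and 2 lower in PGK1_OE. Among all entries tested, 76.4% had groups that stood apart, 37.9% higher and 38.5% lower in PGK1_OE.

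Levels of different genes were compared on the deposited FPKM, which are scaled to length. TGFBR2 was the highest of the 9 in both groups, at 68.2 ± 3.88 FPKM in PGK1_OE and 64.8 ± 1.06 FPKM in WT (SD, n = 3 each), and TGFB2 was the lowest, at 1.67 ± 0.172 FPKM in PGK1_OE and 2.08 ± 0.258 FPKM in WT. In PGK1_OE the order below TGFBR2 was TGFB1 (56.4 ± 2.83 FPKM), TGFBR1 (27.5 ± 1.83), SMAD3 (20.4 ± 1.02), SMAD2 (15.7 ± 1.46), SMAD4 (15.3 ± 1.50), TGFBI (5.54 ± 0.257) and SKIL (4.83 ± 0.901). The ranges of the neighbours SMAD2 and SMAD4, and of TGFBI and SKIL, overlapped in PGK1_OE. In WT the order below TGFBR2 was SMAD2 (31.8 ± 4.49 FPKM), TGFB1 (22.9 ± 1.84), SMAD3 (14.5 ± 0.330), SMAD4 (12.4 ± 0.923), TGFBR1 (11.9 ± 0.397), SKIL (9.25 ± 3.18) and TGFBI (4.64 ± 0.488). SMAD4 and TGFBR1, and TGFBR1 and SKIL, overlapped in WT. SMAD2 thus ranked 5 of 9 in PGK1_OE and 2 of 9 in WT, and TGFBR1 ranked 3 of 9 in PGK1_OE and 6 of 9 in WT.

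FPKM of SKIL, SMAD2 and SMAD4 spread clearly more than their counts in both groups, and FPKM of TGFB2, TGFBI and TGFBR2 slightly more. SKIL had 4.37, 5.87 and 4.25 FPKM in PGK1_OE libraries, against 7.97, 12.9 and 6.91 FPKM in WT libraries, with WT replicate 2 far above the other WT libraries. Its coefficient of variation was 18.7% on FPKM and 4.31% on CPM in PGK1_OE, and 34.4% on FPKM and 9.72% on CPM in WT. For SMAD2 it was 9.30% on FPKM and 2.01% on CPM in PGK1_OE, and 14.1% on FPKM and 6.33% on CPM in WT. For SMAD4 it was 9.86% on FPKM and 2.27% on CPM in PGK1_OE, and 7.46% on FPKM and 4.72% on CPM in WT. For SMAD3 it was 4.99% on FPKM and 4.86% on CPM in PGK1_OE, and 2.29% on FPKM and 4.53% on CPM in WT. The order of its libraries changed, however. PGK1_OE replicate 1 was its highest PGK1_OE library on CPM (133, against 120 and 126) and its lowest on FPKM (19.3, against 21.2 and 20.9). The fold of SMAD2 was 0.494 on mean FPKM and 0.597 on mean CPM. A fixed length per gene would give both measures nearly the same spread and order of libraries, which SKIL, SMAD2, SMAD4 and SMAD3 did not show. The reason was not tested. The FPKM ranks, folds and ratios of these genes include that difference between the measures.

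**Figure D3:**
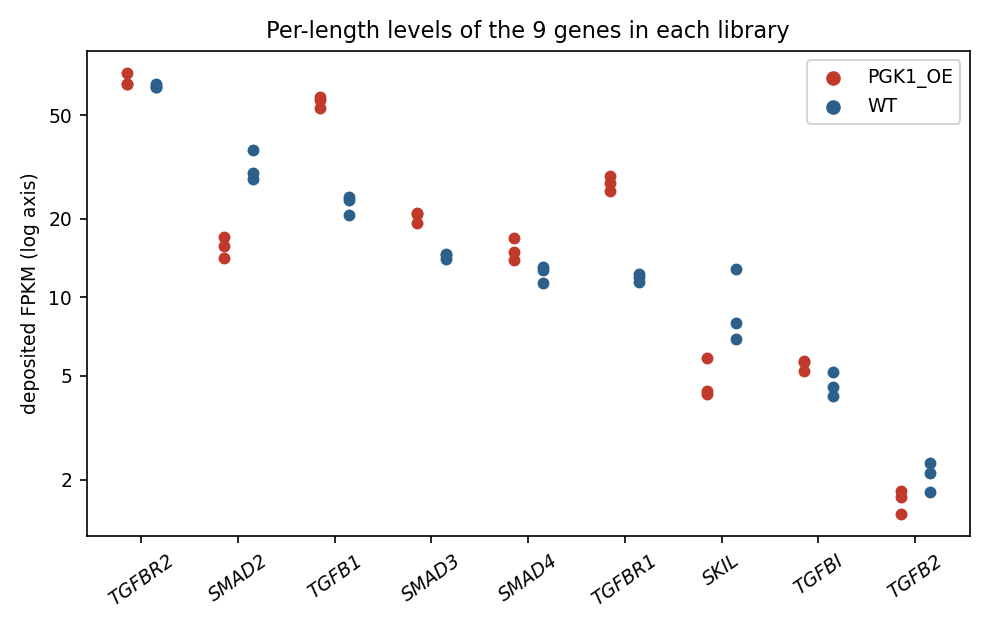
Deposited FPKM (vertical log axis) of the 9 genes in each PGK1_OE library (red, left of each pair) and WT library (blue, right of each pair), ordered by the WT mean. TGFBR2 is highest and TGFB2 lowest in both groups, and the WT points of SKIL spread from 6.91 to 12.9 FPKM.

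Ratios of paired components were then compared, because the scaling factor of a library cancels in a ratio of 2 of its genes. The length scaling in FPKM does not cancel. For some of these genes FPKM and counts did not move together between libraries, so ratios of raw counts were run as well. Per length, TGFB1 exceeded TGFB2 by 39.8, 31.8 and 30.9 times in PGK1_OE libraries, against 10.2, 9.77 and 13.4 times in WT libraries. The difference of mean log2 ratios was 1.62. TGFBR1 was at 0.402, 0.387 and 0.419 of TGFBR2 in PGK1_OE libraries, against 0.174, 0.192 and 0.185 in WT libraries, a difference of 1.13. In both pairs every PGK1_OE library lay above every WT library.

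The ratio of SMAD2 to SMAD3 was 0.821, 0.670 and 0.819 in PGK1_OE libraries, against 2.06, 2.62 and 1.93 in WT libraries. SMAD2 was thus the lower of the pair in every PGK1_OE library and the higher in every WT library, and the difference of mean log2 ratios was -1.51. SMAD4 stood at 0.723, 0.798 and 0.717 of SMAD3 in PGK1_OE libraries, against 0.899, 0.902 and 0.770 in WT libraries, and these groups overlapped. SKIL was set against SKI, which encodes a related SMAD repressor and rose (0.31 on the log2 scale, edgeR adjusted p = 0.000552, SE 0.06). The ratio of SKIL to SKI was 0.436, 0.569 and 0.443 in PGK1_OE libraries, against 0.892, 1.63 and 0.847 in WT libraries, a difference of -1.16. With 3 libraries against 3, the two-sided exact permutation test cannot go below p = 0.1. The exact permutation test gave p = 0.1 (0.125 adjusted by Benjamini-Hochberg over the 5 ratios) for each ratio but SMAD4 to SMAD3, which gave p = 0.2 (0.2 adjusted).

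**Figure D4:**
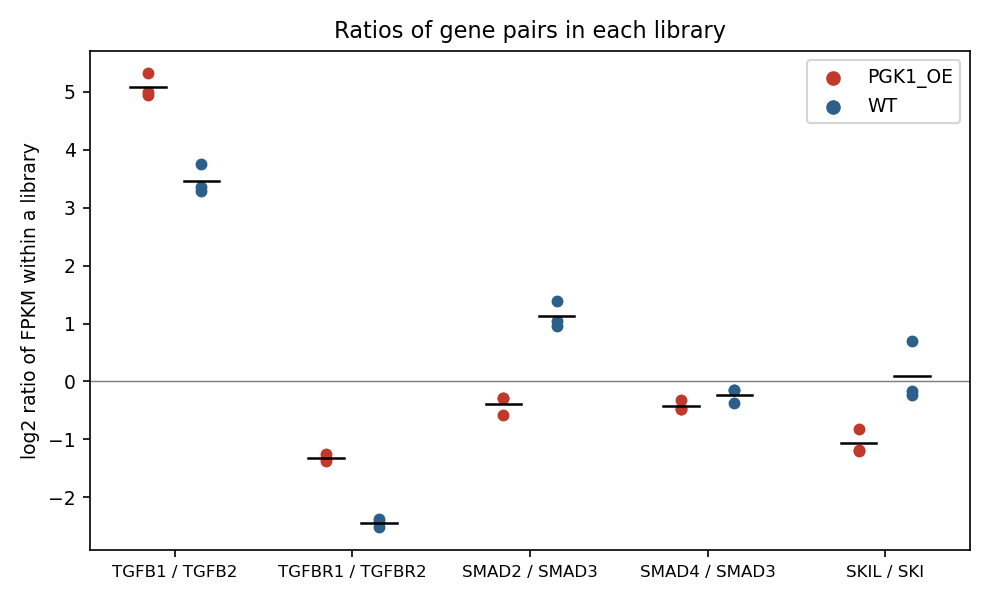
Log2 ratio of FPKM of 5 gene pairs (vertical axis) in each PGK1_OE library (red, left) and WT library (blue, right), with the group means as lines. The groups stand apart for every pair but SMAD4 to SMAD3, and the SMAD2 to SMAD3 ratio lies below 0 in PGK1_OE and above 0 in WT. Groups also stood apart for 76.4% of single entries tested, and the share over other gene pairs was not computed.

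Other genes of the TGF-beta superfamily were read from the same fit in 7 lists, of which 83 of 96 genes were tested. Of these 34 rose and 32 fell. The 66 called are 79.5% of those tested, beside 71.2% of all entries tested, and the median log2 fold change over the 83 tested was 0.02, beside -0.02 for all entries. The counts in each list below stand beside 35.4% of all entries called upward and 35.8% downward, and no list was tested as a set. Up to 3 genes with the smallest adjusted p in each direction are named per list. The rule takes only genes called by edgeR, and values in parentheses are log2 fold changes. The groups did not overlap for any of them, which this choice favours, and which held for 76.4% of all entries tested.

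In the list of the latent complex and its activation, which also holds the ligand gene TGFB3, 9 of 14 tested genes rose and 2 fell (median 0.76), beside 35.4% of all entries upward and 35.8% downward. TGFB3 was among those that rose, at a low level, with 3.83 ± 0.387 CPM in PGK1_OE and 1.28 ± 0.363 CPM in WT (1.58, SE 0.25). It was not named by the rule above, so alternatives and exon overlaps were not examined for it. FBN1, whose product fibrillin anchors latent complexes, stood at 134 ± 5.89 CPM in PGK1_OE and 71.1 ± 3.95 CPM in WT (0.91). THBS1, whose product thrombospondin can activate latent TGF-beta, stood at 97.8 ± 9.56 CPM in PGK1_OE and 39.5 ± 3.19 CPM in WT (1.31). The latent TGF-beta binding protein gene LTBP1 rose (0.56), while LTBP2 fell (-0.50) and the integrin subunit gene ITGB1 fell slightly (-0.10, or -0.16 with limma on log2(FPKM + 1)). The ITGB1 call was lost without PGK1_OE replicate 1 (edgeR adjusted p = 0.0509) and without WT replicate 1 or 3 (0.0731 and 0.0587).

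Of 9 tested co-receptors and receptor partners, 5 rose and 3 fell (median 0.40). TGFBR3, the betaglycan co-receptor that presents TGF-beta 2, stood at 38.2 ± 4.53 CPM in PGK1_OE and 7.61 ± 1.15 CPM in WT, a 5.02-fold rise (2.33, SE 0.13, edgeR adjusted p = 6.77e-08). FKBP1A, which encodes a protein that binds the inactive type I receptor, rose (0.69), as did the co-receptor gene CD109 (0.48). STRAP (-0.55), the deubiquitinase gene USP15 (-0.51) and ZFYVE9 (-0.35), which encodes the SMAD anchor SARA, fell.

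Of 11 tested feedback inhibitors and SMAD repressors, 3 rose and 6 fell (median -0.26). NEDD4L, a ubiquitin ligase gene whose product targets activated SMADs, stood at 440 ± 11.3 CPM in PGK1_OE and 1166 ± 39.5 CPM in WT (-1.41). The corepressor genes TGIF1 (-0.88) and TGIF2 (-0.68) fell as well. SMAD6, an inhibitory SMAD gene, rose at a low level, with 2.05 ± 0.170 CPM in PGK1_OE and 0.256 ± 0.0390 CPM in WT (2.99, SE 0.33). Its log2 fold change was 0.53 on the log2(FPKM + 1) scale, which understates changes of low genes. The ubiquitin ligase gene SMURF2 (0.37) and SKI also rose.

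Genes that TGF-beta is known to induce in matrix, cytoskeleton and epithelial-mesenchymal transition were divided, with 8 of 21 tested rising, 7 falling and a median of -0.02. HMGA2, a chromatin protein gene, stood at 759 ± 37.2 CPM in PGK1_OE and 271 ± 14.7 CPM in WT (1.48). The collagen cross-linking enzyme gene LOX (0.65) and the protease inhibitor gene TIMP1 (0.86) rose too. SNAI2, a transcription factor gene that represses epithelial genes, stood at 19.0 ± 0.234 CPM in PGK1_OE and 60.8 ± 5.49 CPM in WT (-1.68). The transcription factor gene ZEB2 fell too (-1.05).

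Of 9 tested genes of the cytostatic response, 4 rose and 4 fell (median 0.57). TGF-beta lowers MYC, CDC25A and ID1 in epithelial cells. MYC, a growth-promoting transcription factor gene, stood at 33.3 ± 1.54 CPM in PGK1_OE and 418 ± 4.99 CPM in WT, 12.6-fold lower in PGK1_OE (-3.65, SE 0.05, edgeR adjusted p = 3.85e-13). ID1 stood at 30.9 ± 1.08 CPM in PGK1_OE and 3.28 ± 0.604 CPM in WT (3.23), and the cell cycle phosphatase gene CDC25A (2.27) and the pocket protein gene RBL1 (2.18) rose. E2F5 (-1.40) and E2F4 (-0.51), whose products are repressive E2F factors, fell. CDKN2B, a cyclin-dependent kinase inhibitor gene that TGF-beta induces in epithelial cells, had 0 counts in every library. A count of 0 allows up to 3 counts, or 0.0837 CPM in the shallowest PGK1_OE library and 0.0871 CPM in the shallowest WT library, by counting error only.

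In the neighbouring BMP, GDF and activin branch, 8 of 15 ligand and antagonist genes were tested, of which 2 rose and 5 fell (median -0.78). GDF15, a stress-induced distant member of the family, stood at 262 ± 38.5 CPM in PGK1_OE and 1180 ± 80.7 CPM in WT (-2.17). INHBA, the activin A subunit gene, stood at 2.67 ± 0.503 CPM in PGK1_OE and 11.1 ± 1.83 CPM in WT (-2.06, or -0.91 on the log2(FPKM + 1) scale), and the BMP antagonist gene CHRD fell (-1.53). GDF11 (1.56) and the BMP antagonist gene NOG (1.00) rose. Of 11 receptors and SMADs of this branch 3 rose and 5 fell (median -0.04). The type I receptor genes BMPR1A (0.98) and ACVRL1 (0.94) and the type II receptor gene BMPR2 (0.28) rose, while ACVR2A (-1.48) and ACVR1B (-0.54), the activin type I receptor gene, fell, and ACVR1 fell by 1.00.

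Of the genes named from the lists, THBS1, LTBP1, LTBP2, ITGB1, FKBP1A, CD109, USP15, ZFYVE9, SMURF2, NEDD4L, TGIF2, HMGA2, LOX, ZEB2, RBL1, E2F5, GDF11, CHRD and ACVR2A share exon bases with another annotated gene, so their values may include its reads and are uncertain.

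**Figure D5:**
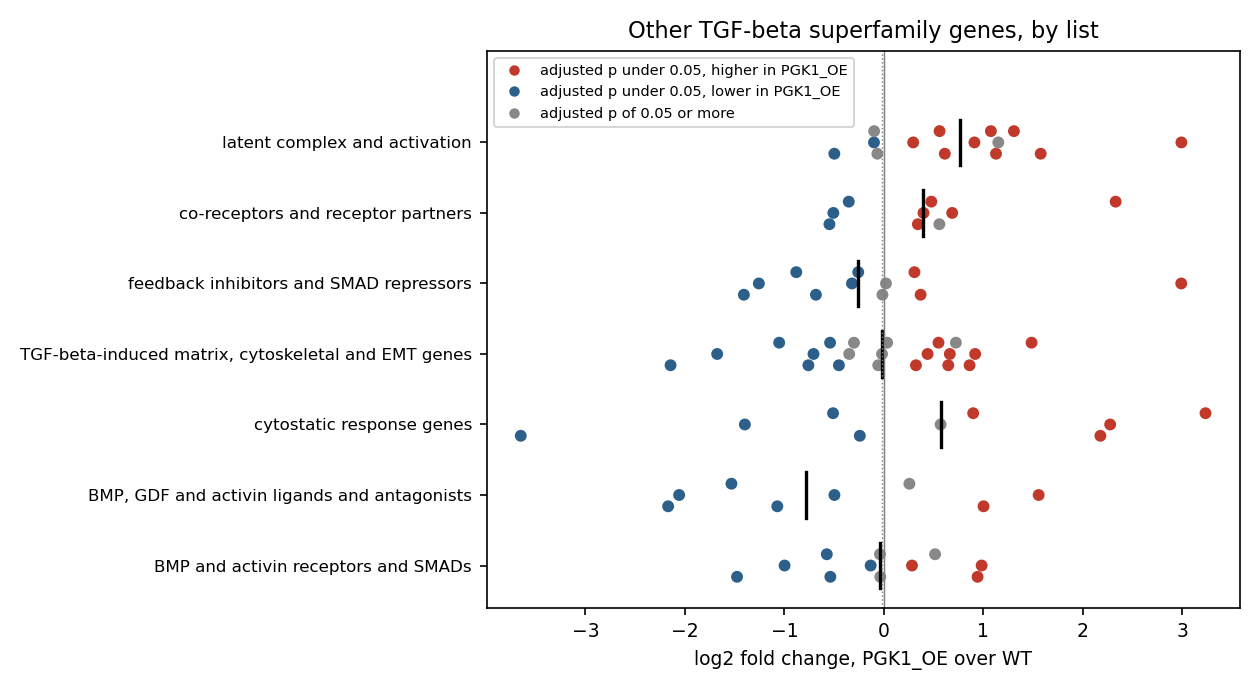
Log2 fold change of PGK1_OE over WT (horizontal axis) of each tested gene in 7 lists of TGF-beta superfamily genes, red for genes that rose, blue for genes that fell and grey for those not called, with the list median as a black line and the median of all entries as a dotted line. Every list holds genes that rose and genes that fell, and MYC (-3.65) lies furthest left and ID1 (3.23) furthest right.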

How the data were processed

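Bulk polyA RNA-seq of HT1080 cells was read in 6 libraries, 3 PGK1_OE and 3 WT, grouped by the sample titles. Table columns were matched through the sample descriptions. The tools fastp and HISAT and the build hg38 are named, per the submitters' processing notes. Not given in the sources used here: versions, read counter, strand setting and annotation. Raw read counts per gene were deposited by the authors, and the FPKM, scaled to gene length and library size, are used as deposited.

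Counts were tested in R 4.3.3 with edgeR 4.0.16 (filterByExpr, TMM, robust quasi-likelihood, group as the only term, two-sided), with Benjamini-Hochberg adjustment across 14322 entries. TMM factors ranged from 0.982 to 0.987 in PGK1_OE and from 1.01 to 1.03 in WT. The SE is the absolute log2 fold change over the square root of F. The biological coefficient of variation was 15.2%. Within groups, no 2 libraries agreed within sampling noise, with a chi-square of 7.93 to 15.2 per degree of freedom. Log2 CPM correlated with Pearson r of 0.967 to 0.972 within a group and 0.899 to 0.911 across groups, over genes. The steps were also run on simulated counts with few changed genes and the same dispersion for all genes. In these data 71.2% of entries tested were called, so that run does not cover this setting.

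The 9 members and the gene lists were chosen with earlier results of these data known. Named genes are the members, PGK1, SKI and, per list, up to 3 genes with the smallest adjusted p in each direction, of which 1 is not reported here. Ratios used FPKM and a two-sided exact permutation test. Positions and overlaps come from GENCODE 29 on GRCh38, matched by Ensembl identifier, not from the authors' annotation. Precision is limited by depth for genes with few counts.

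Alternatives were RLE factors, library totals, PGK1 left out of scaling, no low-count filter or at least 1 CPM in 3 libraries, DESeq2 1.42.0, limma 3.58.1 on log2(FPKM + 1) or log2(FPKM + 0.1) with FPKM of at least 1 in 3 libraries or unfiltered, the replicate number as a block, each library left out, and an adjusted p under 0.01.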

Additional observations from a re-analysis of the deposited data

How the results depend on the processing

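The number of members called was 8 with edgeR and lay between 6 and 8 under every alternative run, 7 to 8 with 1 library left out. The alternatives run kept the direction of every member and of the genes named from the lists (PGK1 was not recomputed), and SMAD6 had no value where FPKM of at least 1 was required. TGFB1, TGFBR1, SMAD2, SMAD3, SMAD4 and SKIL stayed on the same side of the threshold in all 17 alternatives each. Their log2 fold changes ranged from 1.27 to 1.40, 1.14 to 1.30, -1.01 to -0.68, 0.46 to 0.54, 0.28 to 0.39 and -0.89 to -0.60. TGFBI kept its call in 10 of 17 alternatives, TGFBR2 in 12, and TGFB2 stayed uncalled in 15. Over all entries 9694 to 9901 were called with 1 library left out, against 10195 with all, and 62 to 66 listed genes, against 66. Library totals shifted the median of all entries by -0.05 on the log2 scale. Leaving out 1 library moved the difference in log2 ratio to between 1.51 and 1.76 for TGFB1 to TGFB2, 1.09 and 1.16 for TGFBR1 to TGFBR2, -1.60 and -1.38 for SMAD2 to SMAD3, -0.27 and -0.16 for SMAD4 to SMAD3, and -1.33 and -0.86 for SKIL to SKI. With raw counts in place of FPKM it was -1.25 for SMAD2 to SMAD3, and the mean log2 ratio of SKIL to SKI in PGK1_OE dropped by 1.00 relative to WT.

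The replicate numbers do not pair the samples by the labels, and same-numbered libraries deviated together with r of -0.01, -0.01 and 0.05. Under a replicate block in the fit, 9943 entries, 8 members and 65 listed genes were called, and the ratio differences were 1.62, 1.13, -1.51, -0.20 and -1.16 in the order above, each with a sign-flip p of 0.25, the smallest 3 pairs can give.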
